A study of Mus musculus with 25 samples.

Results

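The 40 genes described here encode ribosome biogenesis factors, the proteins that transcribe, modify and fold pre-ribosomal RNA and assemble it into ribosomal subunits. They were chosen by name, with earlier results of these data known, and all 40 are among the 24411 gene rows counted in each library. By their role they fall into 6 groups: RNA polymerase I and its partners (5 genes), box C/D small nucleolar ribonucleoproteins (snoRNPs; 4), box H/ACA snoRNPs (4), small subunit assembly (11), large subunit assembly (12) and nucleolar chaperones, a GTPase and a helicase (4).

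A ribosome begins in the nucleolus, where RNA polymerase I copies the ribosomal DNA into one long precursor. Box C/D snoRNPs methylate this precursor and box H/ACA snoRNPs turn chosen uridines into pseudouridine, while assembly factors cut and fold it around the ribosomal proteins. The work is among the costliest of a growing cell, its genes are known targets of the transcription factor Myc, and macrophages change both growth and protein output when they are activated.

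RNA-seq counts of 25 libraries in 9 conditions were compared. Bone marrow-derived macrophages (BMDMs) came from C57BL/6 mice and were differentiated in DMEM with 25 ng/ml M-CSF for 4 days. They were left as controls (labelled as cultured for 4 h) or given IFN-γ at 100 U/ml and LPS at 100 ng/ml (IFN-LPS below). The study calls the IFN-LPS cells IFN-γ-primed, with LPS for 1, 4, 12 or 24 h, and its text states no length of priming. Others were treated with IL-4 or IL-13 at 10 ng/ml for 12 h, and each of these 7 groups had 3 libraries. RAW264.7, a mouse macrophage line derived from BALB/c mice infected with Abelson leukemia virus and grown in RPMI medium, was left untreated or given LPS alone at 100 ng/ml for 4 h, with 2 libraries each. The methods of the study call the BMDM replicates biological and their RNA samples independent, but neither methods nor labels tie a replicate to an animal or culture, so p-values measure the spread between these libraries. The comparisons ask how classical (IFN-LPS) and alternative (IL-4, IL-13) activation change transcript levels, and how the line differs from primary cells.

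Each library held 2378639 to 3357300 counts on genes, of which Rn45s, the row of the 45S ribosomal RNA unit, took 20.1% to 39.8%. These are counts of ribosomal RNA that escaped depletion, and they do not separate precursor from mature RNA. Rn45s was left out, since its share also reflects the depletion. The members together held 1550 to 3525 counts in a BMDM library and 16429 to 19962 in a RAW264.7 library. Levels are given as CPM, counts scaled to a common library size by TMM and without Rn45s, and are therefore relative to the other transcripts of a library. In these bulk samples, fewer cells of a type and less RNA per cell cannot be told apart. All 9 macrophage markers had counts in BMDMs, while Mertk was at 0 in RAW264.7. The 5 fibroblast markers summed to 52.4 to 109 CPM in BMDM libraries and to 0 in RAW264.7, and B cell, T or NK cell and erythroid markers summed to at most 3.33 CPM in any library. Neutrophil markers summed to 12.2 to 51.7 CPM in BMDMs.

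The promoters were read first, because most of the comparisons below ask whether the members move together. Of the 40 genes, 33 had an entry in the RefSeq promoter table (GRCm38.p6, 250 bases before to 50 after the start). The E-box CACGTG, the sequence Myc is known for binding, lay in 6 of these 33 (18.2%), against 12.3% of the promoters of genes tested over all 25 libraries and 8.09% of all 27025 genes with a promoter. CACGTG reads the same on both strands. The windows below show it in all 6, 30 bases each, 5′ to 3′ on the gene's strand, with CACGTG in capitals.
Mybbp1a, chr11:72441347-72441376 (+): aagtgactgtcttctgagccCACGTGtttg
Wdr43, chr17:71616220-71616249 (+): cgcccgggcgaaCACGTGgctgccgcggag
Utp18, chr11:93885769-93885798 (-): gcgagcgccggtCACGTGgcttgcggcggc
Utp20, chr10:88826765-88826794 (-): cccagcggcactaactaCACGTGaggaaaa
Pes1, chr11:3963965-3963994 (+): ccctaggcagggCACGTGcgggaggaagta
Nop2, chr6:125131811-125131840 (+): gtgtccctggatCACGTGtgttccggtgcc

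In Utp18 and Nop2 the E-box lay before the annotated start, and in the other 4 within the 50 bases after it. The variant E-box CACGCG, searched on both strands, lay in 13 of the 33 promoters (39.4%), against 20.8% of the promoters of tested genes and 10.5% of all promoters. For the members whose values are followed through all libraries below, a window is shown with CACGCG, or its reverse complement CGCGTG, in capitals. In Mybbp1a the matches on the 2 strands overlap.
Mybbp1a, chr11:72441204-72441233 (+): tctgagcacacgCGCGTGtgagaacactct
Nolc1, chr19:46075810-46075839 (+): gcaggatgatgaCGCGTGtgggaccggaag
Nop10, chr2:112261938-112261967 (+): aggttgttggcgCACGCGattgaagcggcg
Pes1, chr11:3963725-3963754 (+): gctCGCGTGctcaaacaaccgtgtctaggg

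The ETS-type motif CCGGAAG lay in 12 of the 33 promoters (36.4%), against 22.0% of the promoters of tested genes, 9.93% of all promoters and 23 of 56 cytosolic ribosomal protein promoters (41.1%). A longer CG-rich palindrome that was also searched lay in 0 of the 33 and in 0.525% of all promoters. These matches describe the letters in the window and are not evidence of binding. Some of the genes also had a feature of structure in common. In GENCODE M21 (GRCm38, also called mm10), 6 of the 40 (15%) carried annotated small nucleolar RNAs inside them, 19 in all, against 259 of 21951 protein-coding genes (1.18%). The host genes were Nop56 with 5, Nop58 with 4, Wdr43, Ncl and Gnl3 with 3 each and Dkc1 with 1, among them Snord57 and Snord110 in Nop56 and Snord11 and Snord70 in Nop58, which by their names are box C/D RNAs. The RNA in Dkc1 has no name that gives its class.

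In BMDMs the members shifted by small amounts, and no condition moved all of them one way. Their summed level was 1176 ± 38.9 CPM (SD, n = 3) in controls, 1357 ± 55.6 at 1 h of IFN-LPS, 1391 ± 19.7 at 4 h, 1349 ± 72.6 at 12 h and 1494 ± 51.4 at 24 h, and 1373 ± 50.2 with IL-4 and 1327 ± 27.2 with IL-13. In RAW264.7 it was 6214 ± 369 CPM (n = 2) without and 7079 ± 228 with LPS. The RAW264.7 libraries lay above every BMDM library, the 3 libraries at 24 h above all other BMDM libraries, and the 3 controls below them. Npm1 alone supplied 222 to 240 CPM of the control sum and 1797 to 2139 CPM of the RAW264.7 control sum, so the sum follows the abundant members, and single genes are given below.

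**Figure D1:**
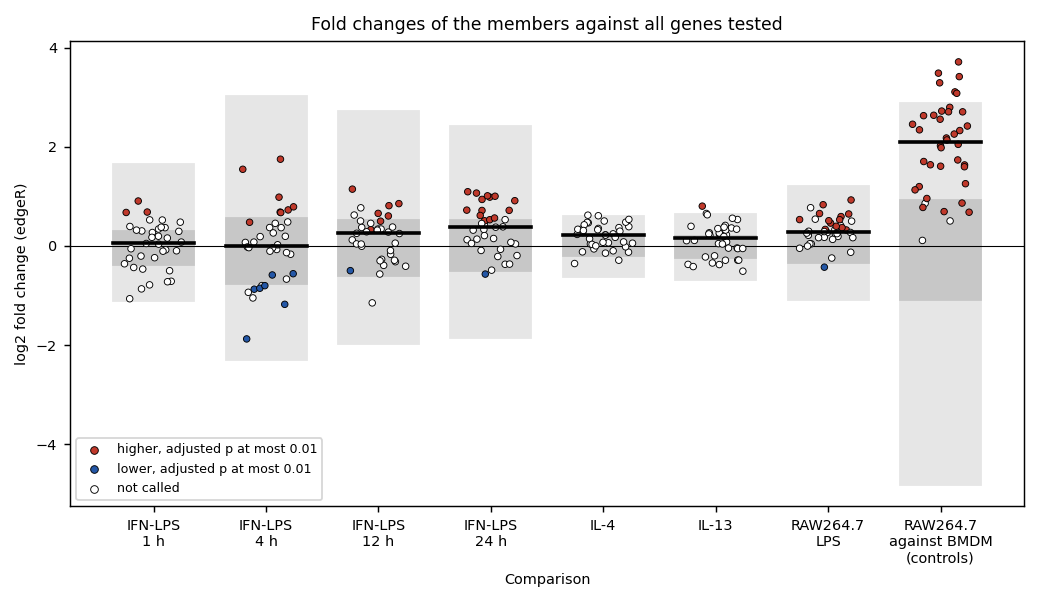
Log2 fold change (y axis, edgeR) of each tested member in 8 comparisons (x axis). Points are genes, red if higher and blue if lower at an adjusted p of at most 0.01, and white if not called. Black bars mark the members' median, dark and light gray boxes the middle 50% and 90% of all genes tested. The members' median was at most 0.38 in the BMDM comparisons with controls and 2.09 between the untreated cell kinds.

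After 1 h of IFN-LPS, 3 of the 36 members tested were higher than in controls (called at an adjusted p of at most 0.01, edgeR) and 0 were lower, where 14.7% of all genes were called higher and 11.3% lower. At an unadjusted p under 0.05, 9 members were higher and 4 lower, and DESeq2 called 1 higher and 0 lower. Polr1b, Gar1, Rrp12 and Nop2 had too few counts in BMDMs to be tested in the time course. Polr1c, a subunit shared by RNA polymerases I and III, read 25.2, 21.7 and 31.0 CPM in the 3 controls and 53.2, 48.9 and 47.5 CPM at 1 h. All treated libraries lay above all controls, with a log2 fold change of 0.91 (SE 0.17, adjusted p = 2.3e-05). Nop10, a small core protein of H/ACA snoRNPs, read 19.3, 26.6 and 24.6 CPM in controls and 39.7, 32.8 and 42.5 CPM at 1 h, again without overlap (0.68, SE 0.19, adjusted p = 0.0035). Gnl2, a nucleolar GTPase of large subunit assembly, rose by a like amount (0.68, SE 0.18, adjusted p = 0.0025). The lowest values were those of Rrp1b (-1.07, adjusted p = 0.059), Bysl (-0.87, adjusted p = 0.12) and Wdr75 (-0.79, adjusted p = 0.020), none of them called. Polr1c was called under every alternative tried, whereas only 1 member was called higher without 1 h replicate 3, and 1 was called lower without control replicate 3 or without 12 h replicate 3.

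At 4 h the members split. Of the 36 tested, 8 were higher and 7 lower, against 26% and 25.6% of all genes, and their median log2 fold change was 0.00 (all genes, -0.07). The higher members were Polr1c, Tcof1, Mybbp1a, Nop10, Wdr43, Rrs1, Ebna1bp2 and Ddx21, and the lower ones Polr1a, Nolc1, Utp15, Heatr1, Rrp1b, Ncl and Gnl3. Only Rrs1, Wdr43 and Rrp1b also passed the log2 fold change minimum of 1.5 that the study set for IFN-LPS. The direction of the split rests on the scaling, because with library size alone, which moves the median of all genes by -0.53, 2 members were higher and 15 lower.

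Rrs1, which brings the 5S ribonucleoprotein into the large subunit, showed the largest rise at 4 h. It read 4.29, 5.97 and 7.48 CPM in controls and 15.9, 24.1 and 22.2 CPM at 4 h, without overlap (log2 fold change 1.75, SE 0.32, adjusted p = 7.0e-06). Wdr43, a subunit of the small subunit processome that binds the 5′ part of the precursor, read 16.1, 19.0 and 14.4 CPM in controls and 42.5, 52.8 and 55.0 CPM at 4 h (1.55, SE 0.20, adjusted p = 2.7e-09). These 2 genes were called higher at 4 h under every alternative in which they were tested. Both then receded, with Wdr43 at 31.2, 37.1 and 24.7 CPM at 12 h and 21.02, 26.8 and 24.01 CPM at 24 h, still above all controls at both times. Between 4 and 12 h the fall was 0.69 on the log2 scale for Wdr43 (adjusted p = 0.0013) and 0.98 for Rrs1 (adjusted p = 0.0051).

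Among the RNA polymerase I group, 3 members rose and 1 fell at 4 h. Tcof1, the treacle protein that couples the polymerase to ribosomal DNA, read 16.6, 12.5 and 11.8 CPM in controls, 8.95, 8.37 and 8.09 CPM at 1 h and 32.8, 24.9 and 27.1 CPM at 4 h. Its 1 h libraries lay below all controls (log2 fold change -0.71, adjusted p = 0.072) and its 4 h libraries above them (0.98, SE 0.26, adjusted p = 0.0013), and between 1 and 4 h it rose by 1.70 (SE 0.29, adjusted p = 4.4e-06). Mybbp1a, a nucleolar protein found with RNA polymerase I, rose from 133, 142 and 120 CPM to 184, 206 and 181 CPM (0.48, SE 0.11, adjusted p = 2.0e-04), but with library size alone its value turned to -0.054. Polr1a, the largest subunit of the polymerase, read 28.4, 23.9 and 13.4 CPM in controls and 15.1, 11.7 and 10.7 CPM at 4 h, where the third control overlapped the treated libraries (-0.87, SE 0.28, adjusted p = 0.0057).

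The 7 falls and 8 rises at 4 h depended on different settings. With library size alone 6 of the 8 rises were lost and all 7 falls kept, with at least 10 counts in every library 4 rises and 3 falls were no longer among the calls, and with DESeq2 6 of the falls and none of the rises were lost. Nolc1, the chaperone that carries snoRNPs to the nucleolus, read 9.12, 13.02 and 12.3 CPM in controls and 7.08, 4.66 and 4.10 CPM at 4 h (-1.18, SE 0.36, adjusted p = 0.0042). Rrp1b, which acts in large subunit assembly, read 10.2, 8.14 and 2.67 CPM in controls and 2.66, 1.55 and 1.64 CPM at 4 h, where the third control lay at the edge of the treated range (-1.88, SE 0.57, adjusted p = 0.0041). Gnl3, or nucleostemin, a GTPase of nucleoli, read 34.3, 32.0 and 31.5 CPM in controls and 23.9, 17.9 and 26.3 CPM at 4 h (-0.59, SE 0.20, adjusted p = 0.0096). Ncl, nucleolin, which binds the precursor and its chromatin, fell from 85.3, 82.5 and 80.7 CPM to 58.5, 48.9 and 68.1 CPM (-0.56, SE 0.16, adjusted p = 0.0026) and was the one member that was lower at 4, 12 and 24 h. The 7 falls at 4 h became 1, 4 and 3 without control replicate 1, 2 or 3, respectively, and 3, 0 and 2 without 4 h replicate 1, 2 or 3. They became 4 without any one of the 1 h replicates or without 24 h replicate 2, and DESeq2 called 1. Utp15 kept its call in 3 of 23 alternatives and Gnl3 in 3 of 24. Among members not called, Bysl was lowest (-1.05, SE 0.50, adjusted p = 0.064).

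Dkc1, dyskerin, the pseudouridine synthase of H/ACA snoRNPs, read 12.3, 16.3 and 14.4 CPM in controls, 10.6, 8.55 and 6.56 CPM at 4 h and 15.01, 15.6 and 22.4 CPM at 12 h. Its 4 h libraries lay below both groups, with a change of -0.80 against controls (adjusted p = 0.020, not called), a fall of 0.96 against 1 h (adjusted p = 0.0063) and a rise of 1.06 from 4 to 12 h (SE 0.30, adjusted p = 0.0029). Npm1, the histone and ribosomal protein chaperone nucleophosmin, read 222, 240 and 235 CPM in controls, 294, 281 and 299 CPM at 1 h and 181, 214 and 191 CPM at 12 h. Its 1 h libraries were all above and its 12 h libraries all below the controls, neither called (adjusted p = 0.019 and 0.013), and the fall from 4 to 12 h was 0.56 (SE 0.11, adjusted p = 1.9e-05). Npm1 has many processed pseudogenes, so its counts are uncertain.

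Between 1 and 4 h, 4 members rose (Rrs1, Wdr43, Tcof1, Ddx21) and 4 fell (Gnl2, Gnl3, Dkc1, Utp15), against 19.8% and 19.1% of all genes. Without 1 h replicate 1 or 2, or without 4 h replicate 2 or 3, 2 fell. The lowest uncalled value there was that of Nolc1 (-0.74, adjusted p = 0.10). Between 4 and 12 h, 6 rose (Nolc1, Bysl, Dkc1, Polr1a, Gnl3, Noc2l) and 5 fell (Polr1c, Rrs1, Wdr43, Npm1, Ddx21), against 16.7% and 19.2%. Nolc1, which was low at 4 h, returned to 13.3, 17.6 and 11.8 CPM at 12 h, above all 4 h libraries (1.43, SE 0.35, adjusted p = 7.3e-04). Bysl rose by a like amount (1.51, SE 0.47, adjusted p = 0.0076), and Polr1c fell most (-1.001, SE 0.20, adjusted p = 3.3e-05), followed by Rrs1 and the uncalled Ddx10 (-0.76, adjusted p = 0.18). The 6 rises became 2 without 4 h replicate 2 and 3 without 12 h replicate 1, and the 5 falls became 2 without 4 h replicate 3 and 3 without 12 h replicate 2 or 3.

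At 12 h, 7 of 36 members were higher and 1 was lower than in controls, against 23.9% and 23.4% of all genes. Tcof1 was highest (1.15, SE 0.24, adjusted p = 9.1e-05), at 42.7, 33.8 and 17.1 CPM, all above the controls though spread widely, and was called under every alternative. Wdr43 (0.85), Rrp9 (0.81, adjusted p = 0.0026), Ebna1bp2 (0.66), Bop1 (0.60), Noc2l (0.50) and Mybbp1a (0.33) were the others. The one lower member, Ncl (-0.50, adjusted p = 0.0046), was not called without control replicate 1 or 2, and 2 members were called lower without 4 h replicate 1 or 12 h replicate 2. The lowest values beside Ncl were Rrp1b (-1.15, adjusted p = 0.031) and Wdr12 (-0.57, adjusted p = 0.090), not called. With library size alone, 1 member was higher and 5 were lower.

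At 24 h the balance had moved upward. Of the 36 members tested, 14 were higher and 1 lower than in controls, 38.9% and 2.78%, against 23.9% and 21.3% of all genes, and their median log2 fold change was 0.38 (all genes, 0.02). By role the higher ones were 2 of 4 of the RNA polymerase I group (Tcof1, Mybbp1a), 3 of 4 box C/D genes (Nop56, Nop58, Fbl), 1 of 3 box H/ACA genes (Nop10), 3 of 10 small subunit genes (Nop14, Rrp9, Utp18) and 5 of 11 large subunit genes (Rrs1, Ebna1bp2, Bop1, Noc2l, Pes1). Rrs1 was highest (1.09, SE 0.32, adjusted p = 0.0034), at 14.7, 11.4 and 12.2 CPM, above all controls. None of the 14 reached a log2 fold change of 1.5. Over the time course, 16 of the 40 members had their highest group mean at 24 h and 9 at 4 h.

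The 3 core box C/D proteins among the members were all called higher at 24 h. Nop56 read 20.4, 14.6 and 14.96 CPM in controls and 26.9, 34.8 and 34.5 CPM at 24 h, without overlap (0.94, SE 0.20, adjusted p = 7.9e-05). Nop58, its partner in the snoRNP scaffold, was 0.72 higher (SE 0.22, adjusted p = 0.0054). Fbl, fibrillarin, the methyltransferase, read 25.2, 26.04 and 27.3 CPM in controls and 41.5, 34.3 and 37.9 CPM at 24 h, but its call was marginal (0.53, SE 0.18, adjusted p = 0.0096) and held in 11 of 24 alternatives. Nolc1, with 11.7, 11.4 and 14.3 CPM, overlapped the controls (0.13, adjusted p = 0.70).

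Pes1 and Bop1 form, with Wdr12, the PeBoW complex that processes the large subunit precursor. Pes1 read 77.2, 67.8 and 76.4 CPM in controls and 114, 118 and 109 CPM at 24 h (0.61, SE 0.11, adjusted p = 8.1e-06). Bop1 read 47.7, 32.5 and 36.9 CPM in controls and 79.7, 82.5 and 74.1 CPM at 24 h (1.00, SE 0.14, adjusted p = 4.1e-08). Both were clear of all controls, whereas Wdr12 read 16.1, 9.22 and 12.8 CPM in controls and 9.78, 8.95 and 13.9 CPM at 24 h and overlapped them (-0.21, SE 0.26, adjusted p = 0.51). The difference between the 3 genes was not tested. In the small subunit group, Nop14 read 16.1, 13.6 and 13.9 CPM in controls, 12.7, 20.2 and 16.5 CPM at 12 h and 28.3, 31.3 and 32.0 CPM at 24 h. It rose late, with 1.07 against controls (SE 0.21, adjusted p = 1.9e-05) and 0.94 against 12 h (SE 0.21, adjusted p = 4.7e-04). Rrp9, a U3 snoRNP protein, read 17.2, 9.22 and 14.96 CPM in controls and 27.9, 24.9 and 29.5 CPM at 24 h (0.98, SE 0.22, adjusted p = 1.6e-04).

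Of the 15 calls at 24 h, 7 held under every alternative, those of Pes1, Bop1, Nop56, Ebna1bp2, Noc2l, Nop14 and Rrp9. The 14 rises became 9 without control replicate 3 and 9 with DESeq2, and 7 with library size alone, where 2 were lower. Ncl, the one lower member (-0.57, SE 0.15, adjusted p = 0.0011), was not called without 24 h replicate 3, and Rrp1b (-0.49, adjusted p = 0.30) and Heatr1 (-0.37, adjusted p = 0.15) were the next lowest. From 12 to 24 h 2 members rose, Nop14 and Polr1c (0.65, adjusted p = 0.0083), and 0 fell, against 5.31% and 8.9% of all genes, and at an unadjusted p under 0.05 these numbers were 7 and 0 (DESeq2, 1 and 0). The highest uncalled value was that of Rrp1b (0.66, adjusted p = 0.37), and the lowest were those of Heatr1 (-0.36), Wdr43 (-0.32) and Utp20 (-0.27), with adjusted p from 0.23 to 0.45. The count of 2 became 1 without any one of control replicate 1, the 3 replicates at 1 h, replicates 2 and 3 at 12 h and replicates 2 and 3 at 24 h, and 0 without 12 h replicate 1. The libraries at 12 and 24 h also differed in strand purity, as given next.

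Of 10 proliferation markers, 9 were lower at 24 h than in controls (summed level 364 to 472 CPM in controls, 189 to 211 CPM at 24 h). Their part in the members' change was not tested. The 24 h, IL-4 and IL-13 libraries also differed from the other BMDM libraries in strand purity, as antisense counts on Rn45s were 0.00603% to 0.0214% of its counts there and 0.0386% to 0.122% in the control, 1, 4 and 12 h libraries. In RAW264.7 the share was 0.0199% to 0.0283%. This library difference cannot be told apart from the treatment or cell kind in the comparisons of 24 h, IL-4 or IL-13 with controls, of 24 h with 12 h, of 12 h of IFN-LPS with IL-4 or IL-13, and of untreated RAW264.7 with BMDMs. The BMDM controls were labelled as cultured for 4 h. Time in culture therefore cannot be told apart from treatment where 1, 12 or 24 h of IFN-LPS, IL-4 or IL-13 is compared with controls.

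**Figure D2:**
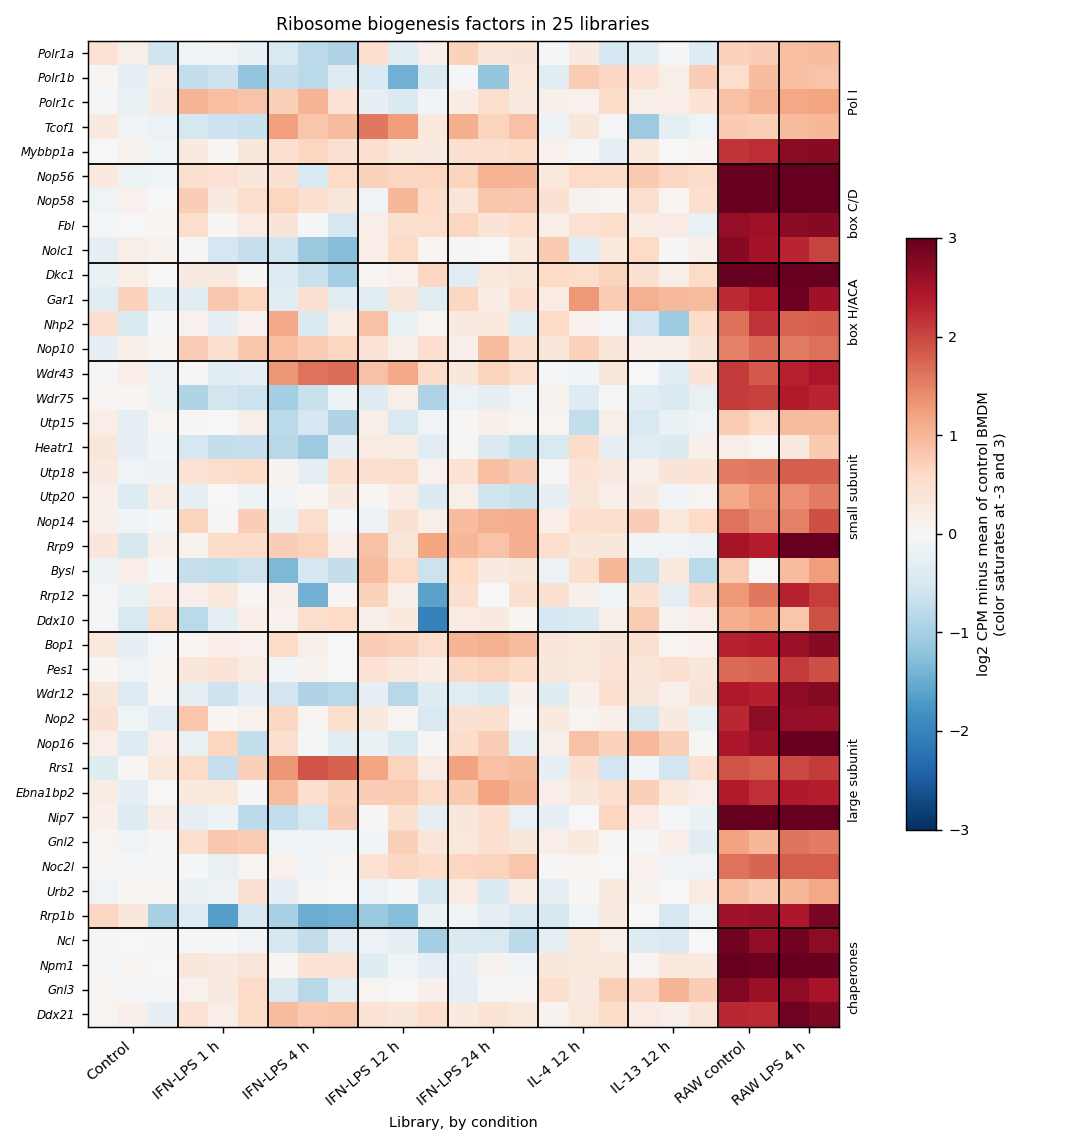
Log2 CPM of the 40 members (rows, ordered by role) in the 25 libraries (columns, by condition), as the difference from the mean of the 3 control BMDM libraries. Red is higher and blue lower, with the color saturating at -3 and 3. The RAW264.7 columns are red in nearly every row, and Wdr43 and Rrs1 stand out at 4 h of IFN-LPS.

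IL-4 and IL-13, the cytokines of alternative activation, gave few calls among the members. With IL-4, 0 of 38 tested were called higher and 0 lower (all genes 4.38% and 3.25%), although 30 of the 38 had a positive sign and the median log2 fold change was 0.23 (all genes, -0.01). At an unadjusted p under 0.05, 9 were higher and 0 lower, and DESeq2 called 0 in either direction. The largest values were those of Nop16 (0.62, adjusted p = 0.21), Dkc1 (0.61, SE 0.21, adjusted p = 0.050) and Bysl (0.53, adjusted p = 0.39), and the lowest those of Ddx10 (-0.36, adjusted p = 0.66), Rrp1b (-0.29, adjusted p = 0.72) and Utp15 (-0.15, adjusted p = 0.79). Dkc1 read 22.0, 21.1 and 23.3 CPM with IL-4, above the 3 controls, and Pes1 likewise read 93.2, 92.3 and 100 CPM (0.35, SE 0.12, adjusted p = 0.035). With this fit, 1 member was called higher without IL-13 replicate 1 or 3, since both treatments share the fit.

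With IL-13, 1 of 38 was called higher and 0 lower (all genes 5.61% and 4.49%). At an unadjusted p under 0.05, 7 were higher and 1 lower, and DESeq2 called 1 and 0. The member called was Gnl3, at 50.6, 67.0 and 55.2 CPM against 34.3, 32.0 and 31.5 CPM in controls, without overlap (0.80, SE 0.15, adjusted p = 6.4e-05), and it was called under every alternative. With IL-4 Gnl3 read 46.6, 39.5 and 54.3 CPM, also above all controls (0.50, SE 0.16, adjusted p = 0.027). After Gnl3, Nop56 (0.65, adjusted p = 0.016) and Nop16 (0.63, adjusted p = 0.17) were highest, and Tcof1 (-0.51, adjusted p = 0.22), Rrp1b (-0.42, adjusted p = 0.54) and Wdr75 (-0.38, adjusted p = 0.32) lowest. A second member was called without control replicate 1. Between IL-13 and IL-4, 0 members were called either way (all genes 0.0865% and 0.0216%), with 1 higher and 3 lower at an unadjusted p under 0.05 and 0 by DESeq2. The highest values there were those of Ddx10 (0.69), Gnl3 (0.30) and Wdr12 (0.18), and the lowest those of Bysl (-0.91, SE 0.38, adjusted p = 0.58), Rrp9 (-0.57) and Tcof1 (-0.55).

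Set against IL-4 at the same 12 h, IFN-LPS left 4 of 40 members higher (Tcof1, Wdr43, Noc2l, Mybbp1a) and 2 lower (Npm1, Ncl), against 21.1% and 19.9% of all genes. Set against IL-13, 5 were higher (Tcof1, Rrp9, Wdr43, Noc2l, Bop1) and 3 lower (Npm1, Gnl3, Wdr12), against 21% and 20%. Tcof1 differed most among the members called, by 1.14 (SE 0.23, adjusted p = 2.4e-05) and 1.68 (SE 0.25, adjusted p = 2.0e-08). Rrs1 (0.90 and 0.84) and, against IL-13, Bysl (0.85) were also among the highest without being called, and Polr1b (-1.44 and -1.52) and Nop16 (-0.86 and -0.87) were among the lowest without being called. Gar1, the lowest by its fitted value, read 0, 0.65 and 0 CPM with IFN-LPS, too few counts for a fold change. Polr1b also rests on few counts, 5 to 13 in a library with IL-4 or IL-13. Polr1b, Gar1, Rrp12 and Nop2, too low in BMDMs for the time-course fit, are among the 40 because this fit held all 25 libraries. Npm1 was lower in both comparisons, -0.56 (adjusted p = 1.7e-06) and -0.49 (adjusted p = 2.6e-05), and its 12 h IFN-LPS libraries (181 to 214 CPM) lay below every IL-4 (283 to 293) and IL-13 (244 to 290) library. With library size alone, 1 was higher and 10 lower against IL-4, and 2 and 10 against IL-13. The IFN-LPS and interleukin libraries also differed in strand purity (antisense counts on Rn45s 0.0827% to 0.122% against 0.00603% to 0.0214%), which cannot be told apart from the treatment. Without 12 h replicate 3 or IL-4 replicate 3, 1 was lower than with IL-4, and without IL-13 replicate 2, 3 were higher than with IL-13.

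**Figure D3:**
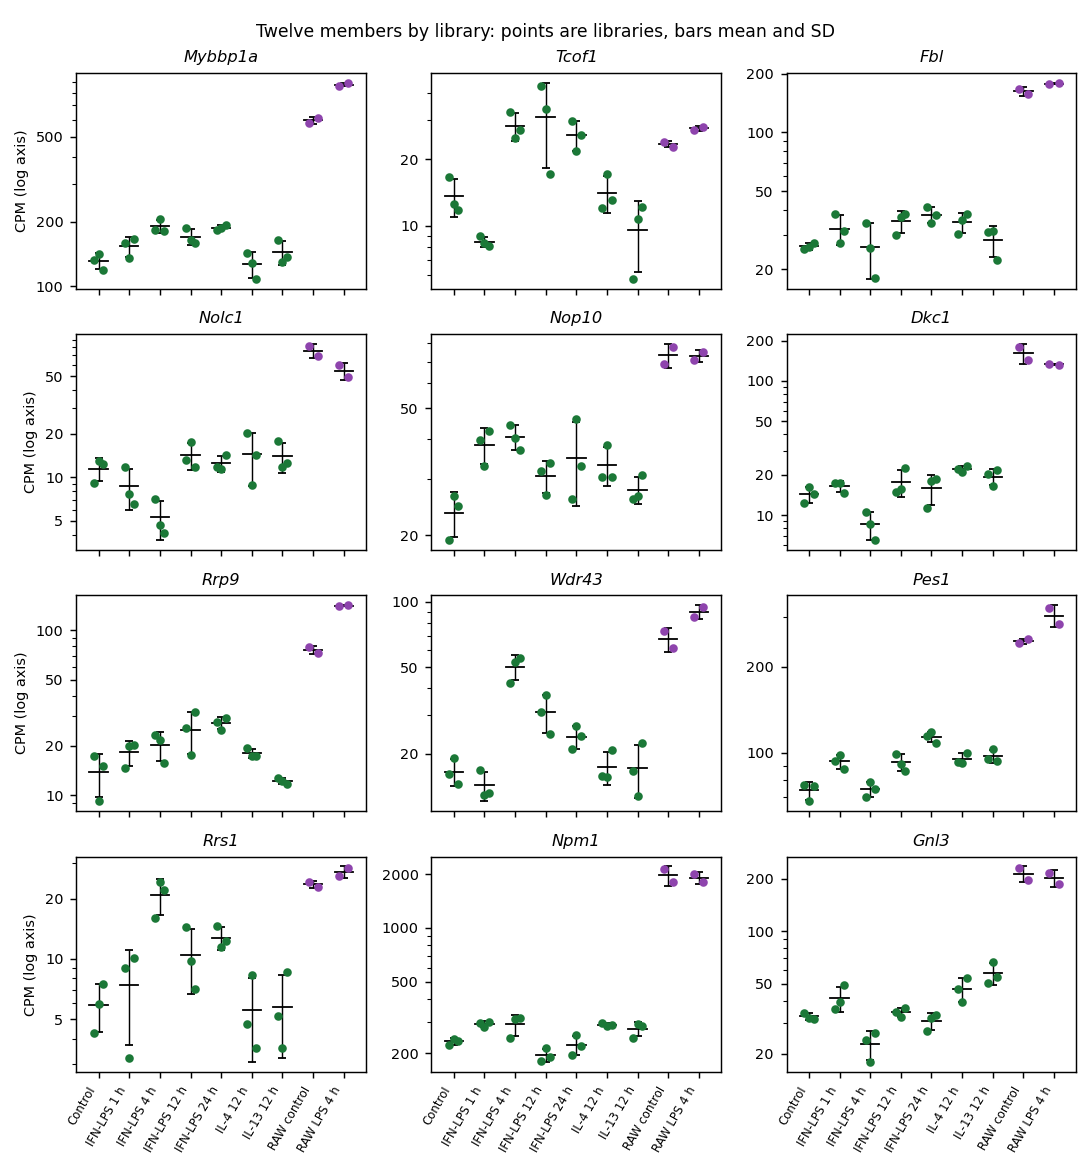
CPM (y axis, log scale, without Rn45s) of 12 members in the 9 conditions (x axis), 2 per role group, the one with the most counts and the one whose BMDM group means spread most. Points are libraries (green BMDM, violet RAW264.7), horizontal bars means and vertical bars SD. Wdr43 and Rrs1 rise at 4 h and recede, Nolc1, Dkc1 and Gnl3 dip at 4 h, and for Npm1, Fbl and Dkc1 the RAW264.7 libraries lie far above all others.

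In RAW264.7, LPS alone for 4 h left 13 of 40 members higher and 1 lower (32.5% and 2.5%), against 15.1% and 12.8% of all genes. All 11 small subunit and all 12 large subunit members had a positive sign, and the median over the 40 was 0.28 (all genes, 0.00). Those called higher were Mybbp1a, Nop56, Nop58, Rrp9, Rrp12, Wdr43, Bop1, Gnl2, Nip7, Nop16, Pes1, Wdr12 and Ddx21. None reached the log2 fold change minimum of 2 that the study set for this line. With 2 libraries a group, every overlap statement here rests on 4 values.

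Rrp9 rose most, from 78.8 and 73.2 CPM to 140 and 141 CPM (0.93, SE 0.11, adjusted p = 2.3e-16). Ddx21, a helicase that binds both ribosomal DNA and snoRNAs, rose from 297 and 295 CPM to 468 and 434 CPM (0.64, SE 0.08, adjusted p = 3.2e-16), and Mybbp1a from 580 and 612 CPM to 863 and 884 CPM (0.59, SE 0.07, adjusted p = 2.7e-17). In each the 2 treated libraries were above both controls. Rrp12 (0.83, SE 0.23, adjusted p = 0.0016), an export factor of pre-ribosomes, was the next highest after Rrp9, and the uncalled Bysl followed (0.77, adjusted p = 0.019). Nop16 (0.65, adjusted p = 9.0e-06), Nip7 (0.53, adjusted p = 1.0e-05) and Nop56 (0.53, adjusted p = 2.1e-08) rose as well. The lower member was Nolc1, at 81.2 and 69.2 CPM without and 59.7 and 49.6 CPM with LPS (-0.43, SE 0.13, adjusted p = 0.0040), and next lowest were Dkc1 (-0.24, adjusted p = 0.032) and Nhp2 (-0.13, adjusted p = 0.66). Npm1 read 2139 and 1797 CPM without and 2014 and 1810.1 CPM with LPS, overlapping (adjusted p = 0.98, SE 0.06). Mybbp1a, Ddx21, Rrp9, Nop56 and Nip7 were called under every alternative, and DESeq2 called 5 higher and 0 lower. Without either RAW264.7 control replicate 1 or LPS replicate 2, 0 were lower, and without control replicate 2, 2 were. With library size alone, 6 were higher and 2 lower. Of 10 proliferation markers, 7 were lower with LPS in this line, and their part was not tested.

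The responses of the 2 cell kinds at 4 h were then compared directly, although BMDMs had received IFN-γ as well as LPS, so that the cell kind and the stimulus cannot be told apart. All 40 members entered one fit of all 25 libraries, also Polr1b, Gar1, Rrp12 and Nop2, too low in BMDMs for the time-course fit. In it, the response of 3 members was higher in RAW264.7 than in BMDMs and that of 3 was lower, against 9.75% and 15.3% of all genes. The higher ones were Rrp1b (difference of log2 fold changes 1.95, SE 0.58, adjusted p = 0.0054), Wdr12 (1.24, SE 0.35, adjusted p = 0.0038) and Heatr1 (1.20, SE 0.36, adjusted p = 0.0069). Wdr12 read 70.4 and 66.3 CPM without and 85.2 and 89.8 CPM with LPS in RAW264.7, and 16.1, 9.22 and 12.8 CPM against 7.97, 6.22 and 6.56 CPM in BMDMs, so its groups separated in opposite directions. Its change in BMDMs alone (-0.94) was not called. The lower ones were Rrs1 (-1.60, SE 0.39, adjusted p = 6.9e-04), Wdr43 (-1.18, SE 0.25, adjusted p = 6.6e-05) and Nop10 (-0.78, SE 0.24, adjusted p = 0.0084). Rrs1 read 24.3 and 22.8 CPM in untreated RAW264.7 and 25.9 and 28.4 CPM with LPS, while outside 4 h of IFN-LPS no BMDM library exceeded 14.7 CPM. Bysl (1.73, adjusted p = 0.021) and Tcof1 (-0.80, adjusted p = 0.058) were among the largest differences that were not called.

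These calls depended on single libraries and on the method. The count of higher responses became 0 without control replicate 1 of the BMDMs, 4 h replicate 2 or RAW264.7 LPS replicate 2, and 1 without 4 h replicate 3. DESeq2 called 0 higher and 2 lower (9 and 5 at an unadjusted p under 0.05), and library size alone gave 12 higher and 0 lower. Mybbp1a and Ddx21 rose in both cell kinds, with differences of 0.02 (SE 0.15, adjusted p = 0.98) and -0.24 (SE 0.17, adjusted p = 0.30).

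**Figure D4:**
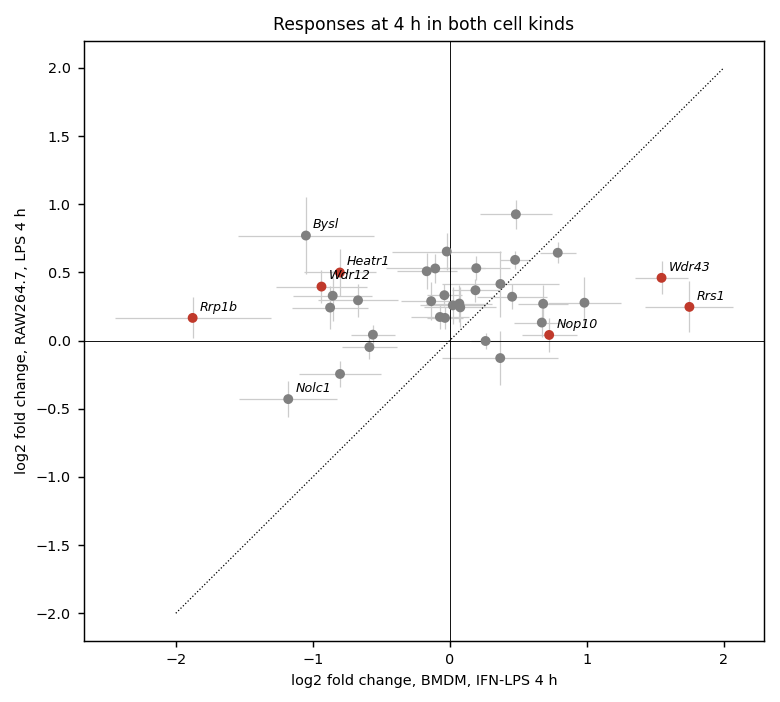
Log2 fold change at 4 h of IFN-LPS in BMDMs (x axis) against that at 4 h of LPS in RAW264.7 (y axis) for the 36 members tested in both. Points are genes with SE bars, red where the difference was called, and the dotted line marks equal change. Rrs1, Wdr43 and Nop10 lie to the right of the line, and Rrp1b, Wdr12 and Heatr1 to the left.

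Of the 15 comparisons, that between the untreated cells gave the most calls among the members. Of the 40 members, 37 were higher in RAW264.7 than in control BMDMs and 0 lower (92.5% against 31.9% and 33.7% of all genes), all 40 had a positive sign, 0 were lower at an unadjusted p under 0.05 or by DESeq2, which called 35 higher, and the median log2 difference was 2.09 (all genes, -0.06). Polr1b (0.86, adjusted p = 0.061), Bysl (0.50, adjusted p = 0.21) and Heatr1 (0.11, SE 0.23, adjusted p = 0.68) were not called. Leaving out any one library gave 34 to 37 higher, and 33 of the 37 were called in every alternative in which they were tested. The exceptions were Utp15, Tcof1, Polr1a and Ddx10. Polr1b, Gar1, Rrp12 and Nop2, too low in BMDMs for the time-course fit, were tested here together with the RAW264.7 libraries, where their counts were higher. Gar1, Rrp12 and Nop2 are among the members called, and all of these genes enter the signs and the median. With at least 10 counts in every library, 23 members were called higher.

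The roles differed in how far they stood apart. Box C/D genes had a median of 2.999, box H/ACA genes 2.77, the chaperone group 2.75, large subunit genes 2.34, small subunit genes 1.60 and the RNA polymerase I group 0.86, and the difference between roles was not tested. The box H/ACA median includes Gar1, whose value rests on very few BMDM counts, so the place of this group in the order is uncertain. The RNA polymerase I median equals the value of Polr1b, which was not called and had 7, 5 and 8 counts in the BMDM controls. Dkc1 read 12.3, 16.3 and 14.4 CPM in BMDMs and 180 and 142 CPM in RAW264.7 (3.49, SE 0.16, adjusted p = 5.7e-31). Nop58 read 13.9, 16.8 and 15.5 CPM in BMDMs and 178 and 153 CPM in RAW264.7 (3.42, SE 0.17, adjusted p = 8.0e-30). Nop56 (3.29, SE 0.16), Nip7 (3.11, SE 0.21) and Npm1 (3.08, SE 0.10, adjusted p = 1.4e-39) followed. Gar1, another H/ACA core protein, had the highest value (3.71, SE 0.74, adjusted p = 7.9e-06), but rested on 2 counts in the 3 BMDM controls against 31 in RAW264.7, a ratio of 15.3 with an exact 95% interval of 3.90 to 132 for counting error only. In all of these the RAW264.7 libraries were clear of the BMDM libraries.

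The RNA polymerase I subunits lay closer together in the 2 cell kinds. Polr1a read 28.4, 23.9 and 13.4 CPM in BMDMs and 34.3 and 35.9 CPM in RAW264.7 (0.68, SE 0.20, adjusted p = 0.0020), and Tcof1 read 16.6, 12.5 and 11.8 CPM against 23.9 and 22.8 CPM (0.78, SE 0.25, adjusted p = 0.0037). Mybbp1a, at 133, 142 and 120 CPM against 580 and 612 CPM, stood out in this group (2.18, SE 0.11, adjusted p = 8.1e-30). Heatr1, a large scaffold of the small subunit processome, read 29.0, 19.0 and 21.4 CPM against 25.7 and 24.3 CPM and overlapped.

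Several other lists differed between the untreated cell kinds. Proliferation markers were higher in RAW264.7 for 10 of 10 genes (median 3.13), with summed levels of 364 to 472 CPM in BMDM controls and 2053 to 2098 CPM in RAW264.7 controls. Of 72 cytosolic ribosomal protein genes tested, 58 were higher and 6 lower (median 0.87), of 76 mitochondrial ribosomal protein genes 66 and 1 (median 1.25), and of 11 noncoding snoRNA host genes 11 and 0 (median 2.16). The part of proliferation, of the fibroblast markers seen in BMDMs but not in RAW264.7, and of the culture media in the members' difference was not tested, and the cell kind, mouse strain (BALB/c against C57BL/6), viral transformation, medium and strand purity of the libraries cannot be told apart.

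The study's second criterion, which adds a minimum log2 fold change (1.5 for IFN-LPS, 2 in RAW264.7, 0.7 with either interleukin), left few members. Against controls, 5.04% of all genes passed it upward and 2.08% downward at 1 h of IFN-LPS, 11.4% and 11.4% at 4 h, 8.87% and 8.42% at 12 h, and at 24 h 7.93% and 6.93%. Among the members, 2 passed upward and 1 downward at 4 h, named above, and none at 1, 12 or 24 h. Between 1 and 4 h, Wdr43 and Tcof1 passed upward, against 7.07% upward and 6.95% downward of all genes. Between 4 and 12 h Bysl passed upward, against 5.2% and 4.45%, and between 12 and 24 h no member passed, against 0.418% and 0.867%. Gnl3 passed upward with IL-13, against 2.98% and 2.38% of all genes. No member passed with IL-4 (2.22% and 1.64% of all genes), between IL-13 and IL-4 (0.054% and 0.0108%) or in RAW264.7 with LPS (2.39% and 0.829%).

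Myc transcript levels were read beside those of the members, and a link between them was not tested. Myc read 9.12, 16.8 and 10.2 CPM in control BMDMs and 41.4, 38.6 and 49.1 CPM at 1 h of IFN-LPS (log2 fold change 1.81, SE 0.22, adjusted p = 4.0e-09), and then lay at 0.82 to 7.08 CPM at 4 h, 2.35 to 2.89 CPM at 12 h and 1.49 to 3.42 CPM at 24 h, below all controls. At 24 h, the time at which most members were called higher in BMDMs, its log2 fold change was -2.34 (SE 0.39, adjusted p = 1.3e-06). It was higher with IL-4 (1.01, SE 0.24, adjusted p = 0.0025) and IL-13 (1.25, SE 0.23, adjusted p = 4.5e-05), where 0 and 1 members were called. In RAW264.7 controls Myc was at 0 and 0.725 CPM (0 and 2 counts), below all BMDM controls. With LPS it read 16.3 and 18.4 CPM there (log2 fold change 5.49, SE 0.53, adjusted p = 2.1e-23). In that group 13 of 40 members were called higher and 1 lower, and the members' summed level was highest of the 9 groups.

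Other genes of the pathway, 137 in 5 lists, were described by counts. At 24 h of IFN-LPS, 37 of 130 tested were higher and 0 lower (28.5% higher, against 23.9% and 21.3% of all genes; median 0.37), with 61 and 5 at an unadjusted p under 0.05 and 23 and 0 by DESeq2. In RAW264.7 with LPS, 38 of 135 were higher and 0 lower (28.1% higher, against 15.1% and 12.8% of all genes; median 0.28), with 61 and 4 at an unadjusted p under 0.05 and 11 and 0 by DESeq2. At 4 h of IFN-LPS, 27 of 130 were higher and 8 lower (20.8% and 6.15%), both below the 26% and 25.6% of all genes. Between untreated cell kinds, 106 of 135 were higher in RAW264.7 and 3 lower (78.5% and 2.22%, against 31.9% and 33.7%; median 1.34). With IL-4 and IL-13, 4 and 3 of 129 were higher (3.10% and 2.33%, against 4.38% and 5.61% of all genes). By list, at 4 h of IFN-LPS, 14 of 48 other small subunit factors were higher and 2 lower, with Rcl1 highest (2.42, SE 0.21, adjusted p = 2.2e-14) and Imp3 lowest (-0.99, adjusted p = 1.6e-04). Of 49 other large subunit factors, 11 were higher and 2 lower, with Ccdc86 highest (2.90, SE 0.17, adjusted p = 7.5e-20) and Ddx31 lowest (-2.01, SE 0.27, adjusted p = 1.5e-08). Of 11 other RNA polymerase I genes 2 were lower, and values ran from Twistnb (0.51, adjusted p = 0.12) to Cd3eap (-1.33, SE 0.38, adjusted p = 0.0021). Exosome and trimming genes gave 2 and 2 of 14, from Xrn2 (1.17, adjusted p = 3.5e-11) to Exosc6 (-1.50, adjusted p = 0.00996). The 8 snoRNP assembly genes tested ran from Znhit3 (0.89, adjusted p = 0.020) to Naf1 (-0.48, adjusted p = 0.20), neither called.

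The genes of the ribosome itself were counted beside the factors that build it. Of 76 cytosolic ribosomal protein genes 72 were tested, and Rpl26 was at 0 in all 9 conditions, so counts in this list can be incomplete. At 4 h of IFN-LPS, 47 of 72 cytosolic ribosomal protein genes were higher and 0 lower (57 and 0 at an unadjusted p under 0.05, 48 and 0 by DESeq2), 65.3% against 26% of all genes. Their median log2 fold change of 0.34 was smaller than the shift of -0.53 that library size alone gives all genes at 4 h. From 4 to 12 h 0 rose and 58 fell (0 and 66 at an unadjusted p under 0.05, 0 and 57 by DESeq2), 80.6% against 19.2% of all genes. Against controls, 5 were higher and 15 lower at 12 h (6.94% and 20.8%, against 23.9% and 23.4%) and 8 and 6 at 24 h (11.1% and 8.33%, against 23.9% and 21.3%). Mitochondrial ribosomal protein genes gave 10 higher and 4 lower of 72 at 4 h (13.9% and 5.56%) and 42 and 0 at 24 h (58.3% higher; 49 and 0 unadjusted, 28 and 0 by DESeq2). With LPS in RAW264.7, 33 of 72 cytosolic ribosomal protein genes were higher (45.8%, against 15.1% of all genes; median 0.20). There 50 were higher and 0 lower at an unadjusted p under 0.05, but DESeq2 called only 9 higher and 0 lower. Whether the lists differed from the members was not tested.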

How the data were processed

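The study deposited, for each of 25 libraries, gene counts made by the authors. Per the labels, RNA was depleted of ribosomal RNA, made into strand-marked libraries and sequenced as read pairs, and the submitters' processing notes name CASAVA 1.8.2, Trimmomatic 0.33, STAR 2.5.1 and the mm10 build. The sense-strand counts were used as deposited, with Rn45s left out of library sizes and tests. Each library held 1502618 to 2532496 counts without Rn45s, so that low members rest on few counts and small changes in them were not detectable.

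The tests were run with edgeR 4.0.16 under R 4.3.3 (TMM, filterByExpr by group, robust quasi-likelihood test, Benjamini-Hochberg adjustment over all genes tested, called at 0.01), in 1 fit of the 15 time-course libraries, 1 of the 9 control, IL-4 and IL-13 libraries, 1 of the 4 RAW264.7 libraries and, across these sets, 1 of all 25. Figures were drawn with matplotlib 3.10.9 in Python 3.11.15. A standard error is the log2 fold change divided by the square root of F. Replicate numbers were not treated as pairs in the main fits. Deviations from the group means correlated by 0.0391 on average between time-course libraries of the same number. This average was 0.0134 in RAW264.7 and 0.0163 in the interleukin set. Single time-course pairs of the same number ran from -0.114 to 0.289, and libraries of different numbers averaged -0.0198. Such averages cannot show that no pairing exists. Alternatives were Rn45s kept, unstranded counts, library size only, RLE factors, 2 other filters, DESeq2 1.42.0, only the groups compared, the replicate number as a block, and leaving out each replicate. The members and lists were chosen with earlier results of these data known. Any member could be named. Values in every library are given for 2 members of each role, the one with the highest mean and the one with the widest range of BMDM group means, and for others on which a result turns, chosen after their values were seen. For each comparison the 3 highest and 3 lowest log2 fold changes are named. The fits were tested on simulated counts, with criteria revised after the first versions of that test failed, and 2-fold changes in genes with few counts were often missed.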

Additional observations from a re-analysis of the deposited data

Results flagged for a closer look

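The 4 h responses of 6 members differed between the cell kinds by a test of the difference itself in edgeR, 3 of them higher in RAW264.7 given LPS than in BMDMs given IFN-LPS (Rrp1b, Wdr12, Heatr1) and 3 lower (Rrs1, Wdr43, Nop10). Of the 40 members tested, 7.5% were higher and 7.5% lower, against 9.75% and 15.3% of all genes. Of the 6 calls, 0 held under every alternative, and DESeq2 called 0 higher and 2 lower. The stimulus and medium differed as well, and their part cannot be told apart from that of the cell kind.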

How the results depend on the processing

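Counts below are of members called, higher then lower. With library size only, which moved the median of all genes by -0.53 at 4 h and by 0.25 between the untreated cell kinds, they were 1 and 2 at 1 h, 2 and 15 at 4 h, 1 and 5 at 12 h, 7 and 2 at 24 h, 12 lower from 1 to 4 h, 11 and 2 from 4 to 12 h, 4 higher from 12 to 24 h, 3 higher with IL-13, 6 and 2 in RAW264.7 with LPS, 12 and 0 for the difference of responses, 1 and 10 for IFN-LPS against IL-4 and 2 and 10 against IL-13, and Mybbp1a at 4 h turned to -0.054. With DESeq2 they were 1 higher at 1 h, 1 lower at 4 h, 0 lower at 12 h, 9 higher at 24 h, 2 lower from 1 to 4 h, 2 and 3 from 4 to 12 h, 1 higher from 12 to 24 h, 5 and 0 in RAW264.7 with LPS and 0 higher for the difference. With only the groups compared they were 5 and 1 at 1 h, 4 lower at 4 h, 0 lower at 12 h, 3 lower from 4 to 12 h, 1 higher from 12 to 24 h, 2 higher with IL-4, 6 higher for the difference and 1 lower against IL-4. With at least 10 counts in every library, which tested 24 members in the time course, they were 1 lower at 1 h, 4 and 4 at 4 h, 2 lower at 12 h, 2 higher from 1 to 4 h, 3 lower from 4 to 12 h, 1 lower for the difference, 4 lower against IL-4 and 23 higher between untreated cell kinds. Rn45s kept gave 4 lower at 4 h, 5 higher for the difference and 1 higher from 12 to 24 h, where unstranded counts and RLE factors also gave 1. The replicate block gave 1 lower at 1 h and 2 lower at 12 h and moved no other count by over 1.5 times. The cause of these changes was not tested.

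Leaving out 1 library at a time gave 1 to 4 higher and 0 to 1 lower at 1 h, 6 to 8 and 0 to 6 at 4 h, 5 to 9 and 0 to 2 at 12 h, 9 to 14 and 0 to 1 at 24 h, 3 to 4 and 2 to 5 from 1 to 4 h, 2 to 7 and 2 to 5 from 4 to 12 h, 0 to 2 higher from 12 to 24 h, 0 to 1 higher with IL-4, 1 to 2 higher with IL-13, 9 to 13 and 0 to 2 in RAW264.7 with LPS, 34 to 37 higher between untreated cell kinds, 0 to 4 and 2 to 3 for the difference, 3 to 5 and 1 to 3 against IL-4 and 3 to 6 and 2 to 3 against IL-13. A library left out from a pair leaves 1 RAW264.7 sample, assumed to vary like the others.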
